A study of Mus musculus with 5 samples.

Results

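The comparison was between RNA precipitated with an antibody against eIF4E and RNA precipitated with control rabbit immunoglobulin G (IgG), both from the cytoplasmic fraction of wild-type mouse neocortex at embryonic day E13.5. It covered 9954 of the 49875 gene IDs in the deposited table: those above 0 in all 3 precipitate libraries and at 1 or more in 2 or more of them. The eIF4E group had 2 libraries (MBL RN001P antibody), called biological replicates in the labels, which name no animal or pool for either. The IgG group had 1 library (Bioss bs0295P), and 2 Input libraries of the same fraction before precipitation stand beside them for orientation. All 5 libraries came from dissected, enzymatically dissociated cortices and were made by Smart-seq2, which amplifies full-length cDNA from poly(A) RNA. No allele, drug or other treatment was named in the labels.

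eIF4E binds the cap at the 5′ end of mRNAs and, with the scaffold eIF4G and the helicase eIF4A, forms the complex that brings the ribosome to the message. Its repressors, the 4E-BPs, occupy the site on eIF4E that eIF4G uses. In RNA immunoprecipitation, messages held by the protein come down with the antibody, and a control IgG shows what comes down without a specific target. mRNAs made inside mitochondria carry no such cap, which makes them a useful contrast in a cap-binding experiment.

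Values are RSEM abundances per transcript length, either TPM or FPKM, and differences are in log2(value + 1), eIF4E minus IgG, so that they understate the change of low genes. A gene is called higher or lower when each eIF4E library is at least 2-fold from the IgG library in that direction. With 1 IgG library this is a description of these libraries and has no replicate check on the control side. How much RNA each precipitate yielded is unknown, so higher means a higher deposited value and not more RNA. Values were not rescaled and the column totals differed, so a higher value need not be a larger share of the library. The sequencing depth was unknown.

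The eIF4E libraries were nearly alike and the IgG library stood apart. Between the eIF4E libraries 75 of 9954 genes (0.753%) differed by 2-fold or more, against 5150 and 5104 genes between each of them and IgG. The table listed 11825 genes above 0 in IgG and 18677 and 18745 in eIF4E. Column totals were 560076 in IgG and 718857 and 708778 in eIF4E. Transcription factors that mark the cortex were present in every library. Neurod6, of newborn excitatory neurons, measured 516.5 and 538.58 in eIF4E, 486.66 in IgG, and 311.24 and 302.36 in Input. Lhx2, of cortical progenitors, measured 389.14 and 409.18 in eIF4E, 219.84 in IgG, and 217.47 and 217.31 in Input.

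Of the 9954 genes, 2589 (26%) were called higher in eIF4E and 2257 (22.7%) lower, with a median log2 difference of 0.08 over all genes. These shares are the background for the gene groups below. The split between higher and lower calls depended on the scale set between the libraries: 53.4% of calls were higher with the deposited values, 40.3% after scaling every library to the same total, and 36.5% when mitochondrially encoded genes were left out of that total. The last 2 scalings moved the median of all genes to −0.25 and −0.36, so list medians below are best read against the median of all genes. Under them 19.9% and 18.2% of all genes were called higher and 29.4% and 31.7% lower, which are the shares to set beside the rescaled list counts. Genes with an IgG value below 1 passed the minimum only through eIF4E libraries where they were high, so their higher call was partly set by the choice of genes. Among the higher genes named below these were Nbn, Sass6, Sec11c, Lamp2, Lmo3, Sp8, Vtn, Ephb1, Dlx6os1, Mrps18c, Cd320, Nfu1 and Commd3. As a second reading, limma fitted to all 5 libraries called 4308 genes higher (43.3%) and 3845 lower (38.6%) at an adjusted p under 0.05. That fit assumes that the lone IgG library varies like the eIF4E and Input pairs, which these data cannot show. Its balance turned with the scale too, to 3573 higher and 4768 lower with the same total, and to 3333 and 5057 without mitochondrial genes in it.

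**Figure D1:**
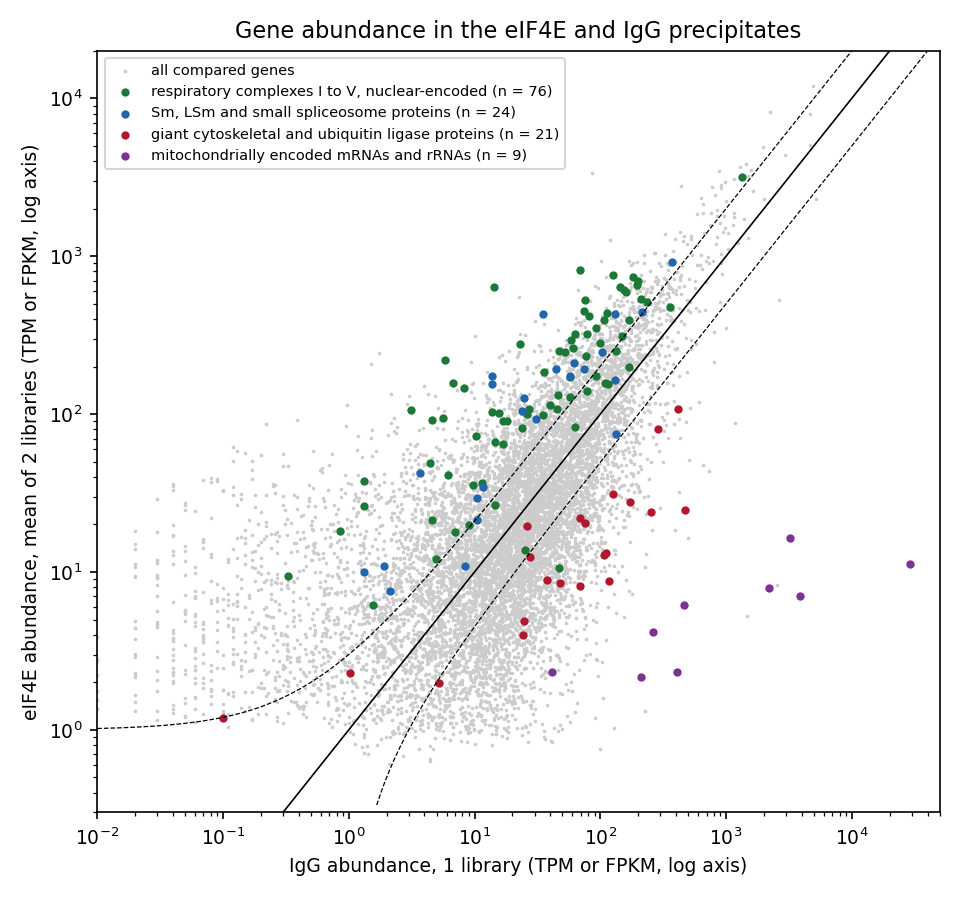
Abundance of each compared gene in the IgG library (x axis) and as the mean of the 2 eIF4E libraries (y axis), TPM or FPKM, both axes log. The solid line marks equal values and the dashed lines 2-fold on value + 1; respiratory chain and small spliceosome genes lie mostly above, giant cytoskeletal genes and all 9 mitochondrially encoded RNAs compared below.

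Eif4e mRNA (chromosome 3, 138526191 to 138559696, GRCm38) measured 1230.61 and 1300.11 in the eIF4E libraries and 120.15 in IgG, with Input at 197.83 and 204.96. Both eIF4E values lay far above the other 3 libraries, a 10.4-fold difference from IgG (log2 3.39, SE 0.06, limma adjusted p = 1.7e-05). Eif4g1, the main scaffold (chromosome 16, 20672720 to 20692883), measured 379.83 and 407.04 against 147.18 in IgG (2.66-fold, limma adjusted p = 6.7e-05). Its paralog Eif4g3 measured 84.49 and 86.15 against 33.94, and the eIF4E paralog Eif4e2, which binds caps weakly, 98.73 and 93.92 against 44.13. These 4 were the members called higher among the 13 genes of the eIF4F list, and 1, Pabpc4, a poly(A)-binding protein, was lower, at 19.15 and 20.45 against 54.56. The list median was log2 0.71, and the 30.8% called higher lay near the 26% of all genes.

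The other members of the eIF4F list lay within 2-fold of IgG in at least 1 eIF4E library. Pabpc1, the main cytoplasmic poly(A)-binding protein, measured 210.39 and 219.41 against 121.31 (1.76-fold, limma adjusted p = 2.3e-04). The helicase pair went apart, with Eif4a1 at 1600.89 and 1653.5 against 896.41 and Eif4a2 at 248.39 and 265.82 against 401.71. Eif4e3 measured 13.8 and 15.22 against 31.35, which was past 2-fold in the first library and not in the second. After scaling to the same total, 2 of the 13 genes were called higher and 3 lower, and with mitochondrial genes left out of the total 1 and 4, so that this count rests on the scale.

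Among repressors and other cap-binding proteins, none of the 12 genes compared was called higher and 3 were lower, with a list median of −0.09. Over all genes 26% were called higher and 22.7% lower, so the 25% lower here lay near that share. Of the 12 differences, 6 lay above 0 and 6 below. Eif4ebp2, the 4E-BP best known in brain, measured 28.51 and 28 in eIF4E and 62.14 in IgG (log2 −1.11, SE 0.10, limma adjusted p = 4.0e-04), with Input at 25.95 and 29.65, close to eIF4E. Cyfip1, which tethers eIF4E to the fragile X protein, measured 7.4 and 7.37 against 19.12. Ncbp3, a nuclear cap-binding protein, measured 6.43 and 6.75 against 20.68. The remaining 9 genes, Eif4ebp1 and the transporter Eif4enif1 among them, were not called, and Eif4ebp3 was listed at 0 in all libraries.

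Initiation factors outside eIF4F leaned to the eIF4E side. Of 29 compared, 15 were higher (51.7%) and none lower, with a median of log2 1.06 against 0.08 over all genes. After scaling to the same total 11 were higher and 1 lower, and with mitochondrial genes left out of the total 9 and 1. Their median Input abundance, 81.0, lay in the highest quintile of genes by Input abundance, where 46.3% were higher and the median was log2 0.94. Eif3m, a subunit of the eIF3 platform, measured 381.82 and 399.84 against 30.4 in IgG (log2 3.64). Eif2b4, a subunit of the exchange factor that recharges eIF2, measured 21.09 and 17.78 against 1.16. The 2 eIF4E values lay above IgG in both genes, but their Input values differed in rank: Eif3m stood at 169.5 and 164.23 in Input, below eIF4E, and Eif2b4 at 33.53 and 37.29, above it.

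mRNAs of ribosomal proteins and elongation factors start with a run of pyrimidines directly after the cap, the terminal oligopyrimidine (TOP) tract, through which mTORC1 signalling sets their translation. Of the listed TOP genes, 16 had such a run at their annotated start, of which 8 were higher in eIF4E, 1 lower and 7 not called, and the starts of 7 show the tract across that range. The first 20 bases from the RefSeq start (GRCm38.p6) follow, 5′ to 3′, with the pyrimidine run that opens the message in capitals.

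Rpl35a: CTCTTTCCgccatcttggcg
Rpl35: CTCTTTCTCTCgaaccaggc
Rps27: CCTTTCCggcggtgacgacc
Fau: CTTCCTCTTTCTTgactcca
Rps6: CTCTTTTTCgtgacgcctcc
Nap1l1: CTTTTTTagcgccatctgct
Rps18: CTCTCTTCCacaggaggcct

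The tracts of Rpl35a (chr16:33056482-33056501, plus strand) and Rpl35 (chr2:39005112-39005131, minus strand) belong to mRNAs that were higher in eIF4E. Rpl35a measured 263.88 and 170.36 against 17.49 in IgG (log2 3.53), and Rpl35 268.61 and 201.32 against 48.52. Rps27 (chr3:90213629-90213648, minus strand) and Fau (chr19:6057947-6057966, plus strand) were higher by less, at log2 1.91 and 1.25. Rps6 (chr4:86857348-86857367, minus strand) and Nap1l1 (chr10:111473227-111473246, plus strand) open with runs of 9 and 7 pyrimidines and were not called, at log2 0.31 and −0.02, and the sign of Rps6 turned under 3 of 10 alternatives. Rps18 (chr17:33955646-33955665, minus strand), with 9, was the lower gene, at log2 −2.54. The length of the run did not sort these 7 mRNAs by their difference. They were picked from the 16 after their values were seen.

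Across all genes the letters at the start did not mark a group. A start with C followed by 4 or more pyrimidines (C or T), read on the gene's own strand at the annotated start only, occurred in 2.51% of 32851 RefSeq start windows. Among the compared genes with a window, 248 of 7715 (3.21%) had such a start, and 13 of 60 cytosolic ribosomal protein genes (21.7%). Annotated starts need not be the capped base, so a missing motif says only that these letters are not there. Of the 248 genes, 26.6% were higher and 21.4% lower with a median of log2 0.01, and of the 7467 without the motif 26.6% and 22.3% with a median of 0.08.

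As lists, the TOP genes lay above the middle of the distribution, as abundant genes did. Of 48 large-subunit proteins 22 were higher (45.8%) and none lower, with a median of log2 0.95. Of 32 small-subunit proteins 16 were higher (50%) and 1 lower, with a median of 1.22. Their median Input abundances, 333.8 and 522.2, lay in the highest quintile of genes by Input abundance. There 46.3% of genes were higher and 2.01% lower, with a median of log2 0.94, so the large-subunit list lay near other abundant genes. Rps29 measured 82.87 and 31.01 against 3.06, and Rps28 419.01 and 222.08 against 23.17, so the eIF4E libraries themselves differed by over 2-fold for Rps29. Rpl19 measured 97.37 and 65.31 against 7.29. The exception was Rps18, at 10.27 and 5.61 against 49.16. Ribosomal protein genes have many processed pseudogenes among which RSEM divides reads, so the value of 1 member is uncertain. Scaled to the same total, 18 large-subunit genes were higher and 1 lower, and 11 small-subunit genes higher and 2 lower.

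Of 15 elongation factors and other TOP mRNAs, 6 were higher (40%) and none lower (median 0.84). Their median Input abundance, 700.8, lay in the highest quintile of genes by Input abundance, where 46.3% were higher. The highest of the 15 were both partners of the nascent polypeptide-associated complex, Btf3 at 922.4 and 950.13 against 170.17 and Naca at 1234.15 and 1323.41 against 392.89. Eef1a1, the elongation factor that delivers tRNA, measured 4832.64 and 5275.75 against 4656.32 (log2 0.12, limma adjusted p = 0.18). Its sign turned after scaling to the same total (−0.23). Scaled so, 4 of the 15 genes were higher and none lower, and with mitochondrial genes left out of the total 2 and 1. In Input, TOP genes stood higher than in either precipitate: the median abundance of the small-subunit list was 195.3 in eIF4E, 104.3 in IgG and 522.2 in Input.

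RNAs made inside mitochondria showed the widest gap. All 7 mitochondrially encoded mRNAs that could be compared were lower in eIF4E, with a median of log2 −6.97. mt-Cytb measured 6.17 and 7.88 in eIF4E and 3901.36 in IgG, with Input between them at 710.85 and 663.53. mt-Nd1 measured 9.55 and 6.22 against 2186.31, and mt-Co1 15 and 17.91 against 3240.64. In IgG mt-Atp6, mt-Co3, mt-Co2 and mt-Nd3 measured 1364.84, 671.7, 153.75 and 30.35, and neither eIF4E library listed any of them above 0. The remaining members, mt-Atp8 and mt-Nd4l, were listed at 0 in all 3 precipitates.

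The ribosomal RNA mt-Rnr2 (mitochondrial genome, 1094 to 2675) had the largest difference of any compared gene, 11.4 and 11.06 in eIF4E against 29258.1 in IgG (log2 −11.22, SE 0.05). mt-Rnr1 measured 2.82 and 1.8 against 41.3, although Input held it at 266.63 and 277.33, above IgG. Thus the IgG library did not hold all mitochondrial RNAs above Input. Genes with mitochondrial names took 7.53% of the IgG library, 0.642% and 0.657% of Input, and 0.00839% and 0.00836% of eIF4E. The order eIF4E, Input, IgG held for each of the 7 mRNAs compared.

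mRNAs for mitochondrial proteins made in the cytoplasm went the opposite way. Of 36 nuclear-encoded subunits of complex I, the NADH dehydrogenase, 31 were higher and 1 lower, with a median of log2 2.02. Of 40 subunits of complexes II to V, 30 were higher and none lower (median 1.84). Ndufc1 (chromosome 3, 51405479 to 51408955) measured 735.14 and 537.97 against 14.19. Ndufb10 measured 115.95 and 97.42 against 3.13, and Cox6b1, of cytochrome oxidase, 260.16 and 176.94 against 5.85. For Uqcr11, of complex III, the values were 188.87 and 125.97 against 6.69. In these 4 genes both eIF4E values lay more than 10 times above IgG. Ndufa10 was the exception, at 16.14 and 4.99 against 47.14, with a wide spread between the eIF4E libraries.

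The mitochondrial ribosome followed the same direction, with 43 of 73 proteins higher and 3 lower (median 1.41). Mrpl36 measured 195.41 and 220.67 against 1.5 and Mrps18c 125.1 and 103.2 against 0.96. Mrpl52 and Mrpl32 were lower, at 24.09 and 23.55 against 69.06 and at 7.77 and 6.17 against 19.25. A further 5 members were listed at 0 in IgG. In Input the median abundance of these lists was close to eIF4E rather than IgG: 156.6, 108.3 and 31.5 in Input, eIF4E and IgG for complex I, and 82.2, 82.2 and 24.9 for the mitochondrial ribosome. After scaling to the same total, 27, 23 and 36 members of the complex I, complex II to V and mitochondrial ribosome lists were still called higher.

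**Figure D2:**
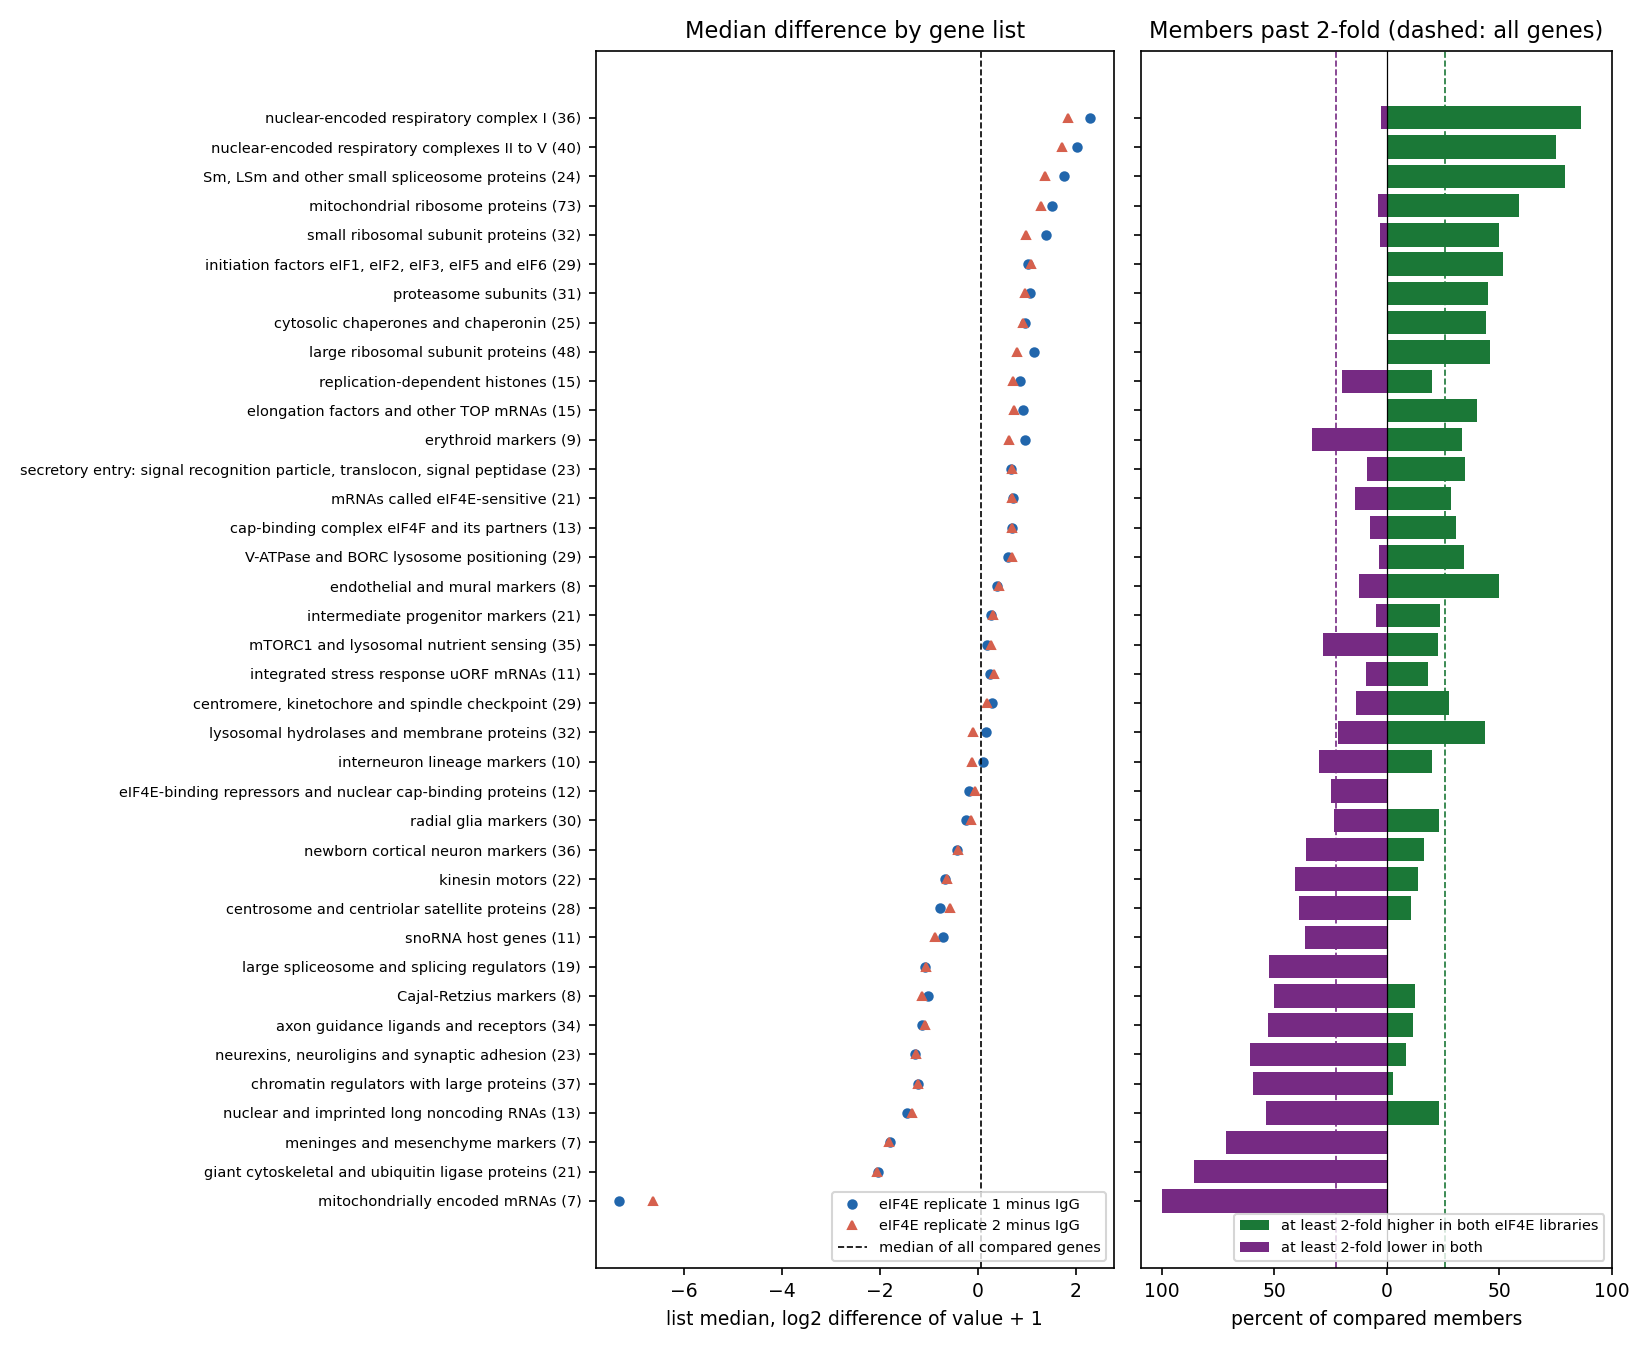
Left, the median log2 difference of value + 1 of each gene list (members compared in parentheses, lists with at least 7) for each eIF4E library against IgG. Right, the percent of members at least 2-fold higher (green) or lower (purple) in both eIF4E libraries, with dashed lines at the shares of all genes, 26% and 22.7%; respiratory complex I is at the top and the mitochondrially encoded mRNAs at the bottom.

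The small spliceosome, proteasome and chaperone lists had higher calls and no lower ones. Among the Sm and LSm proteins, which form rings on spliceosomal RNAs, and other small spliceosome proteins, 19 of 24 genes were higher and none lower (median 1.57). Phf5a, of the branch-point complex, measured 439.53 and 422.28 against 35.19, and Snrpd3, a core Sm protein, 182.56 and 168.15 against 13.83. Proteasome subunits had 14 of 31 higher and none lower (median 0.97), with Psma4 at 183.24 and 180.78 against 29.29. The chaperone list, mostly cytosolic, had 11 of 25 higher and none lower (median 0.97), with Hspe1, a mitochondrial co-chaperonin, at 657.2 and 571.64 against 66.26, and Ppia, cyclophilin A, at 8307.89 and 8134.06 against 2225.3. After scaling to the same total 14 of the small spliceosome genes, 7 of the proteasome genes and 4 of the chaperone genes were higher. With mitochondrial genes left out of the total these counts were 12, 3 and 2. Under both scalings the proteasome and chaperone shares lay near or below those of all genes, 19.9% and 18.2%. With the deposited values 45.2% and 44% of these 2 lists were higher, near the 46.3% of the highest quintile of genes by Input abundance. Their median Input abundances, 232.2 and 230.2, lay in that quintile. So did that of the small spliceosome list, 109.9, of which 79.2% were higher.

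The spliceosome split by member. While its small proteins were higher in eIF4E, 10 of 19 large spliceosome and splicing regulators were lower and none higher (median −1.03). Prpf8, the scaffold at the catalytic centre, measured 25.32 and 24.73 in eIF4E against 197.26 in IgG, with Input at 37.23 on average. Snrnp200, the helicase that unwinds U4 from U6, measured 18.32 and 20.96 against 82.84. Entry into the secretory pathway had no such split, with 8 of 23 higher (34.8%) and 2 lower (8.7%), against 26% and 22.7% of all genes. After scaling to the same total 4 were higher and 2 lower, where all genes had 19.9% and 29.4%. Sec61b, the small subunit of the translocon, measured 132.11 and 106.19 against 14.15, and Sec11c, of signal peptidase, 8.99 and 8.48 against 0.33. Tram1 and Sec63 were lower, at 4.26 and 4.37 against 21.95 and at 12.12 and 9.14 against 45.21.

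Chromatin regulators with large proteins were lower in eIF4E than in IgG. Of 37 genes, 22 were lower and 1 higher, with a median of log2 −1.30. Chd6, a chromodomain helicase, measured 8.88 and 9.12 against 72.29. Trrap, a scaffold of histone acetyltransferase complexes, measured 29.93 and 30.12 against 221.2. The exception was Setd2, a histone methyltransferase, at 24.69 and 25.14 against 10.58. The list's median abundance was 27.2 in eIF4E, 58.0 in IgG and 6.74 in Input, so these mRNAs took a larger share of both precipitates than of Input.

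Messages for giant cytoskeletal proteins and ubiquitin ligases had the lowest median of the nuclear-encoded lists, −1.98, with 18 of 21 lower and none higher. Macf1, which links microtubules to actin (chromosome 4, 123349633 to 123687802), measured 23.22 and 26.43 against 467.79. Sptbn1, a spectrin of the membrane skeleton, measured 8.54 and 8.99 against 117.29. Their Input values averaged 5.19 and 2.24, below every precipitate. The list's median abundance was 12.8 in eIF4E, 69.2 in IgG and 2.92 in Input.

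Genes of the centrosome had 11 of 28 lower and 3 higher (median −0.67). Pcnt, pericentrin (chromosome 10, 76351254 to 76442912), measured 16.68 and 16.02 against 497.98 (log2 −4.85), and Cep250, a linker of centrioles, 4.75 and 4.94 against 92.2. Sass6, of the centriole cartwheel, was higher, at 15.5 and 16.98 against 0.21, as was Cep55, which acts in abscission, at 21.12 and 21.76 against 3.77. With a minimum of 5 in all 3 libraries 18 of these genes were compared, of which none was higher and 6 were lower. At the kinetochore 8 of 29 genes were higher (27.6%) and 4 lower (13.8%), the higher share near the 26% of all genes. There the motor Cenpe measured 25.36 and 25.83 against 297.16 and Cenpf 33.18 and 31.22 against 204.04, while the inner kinetochore proteins Cenpq and Cenpu measured 53.37 and 56.21 against 3.89 and 27.59 and 28.04 against 4.26. The median of the kinetochore list, 0.21, turned to −0.12 after scaling to the same total and to −0.17 with quantile normalization. Of 22 kinesins 9 were lower and 3 higher, from Kif7, of hedgehog signalling (3.96 and 3.8 against 28.4), to Kif22, a chromosome arm motor (148.37 and 148.57 against 52.13).

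Neuronal adhesion and guidance genes were mostly lower. Of 23 synaptic adhesion genes 14 were lower and 2 higher (median −1.27). Nrxn3, a presynaptic neurexin, measured 1.33 and 1.31 in eIF4E and 228.62 in IgG, with Input at 1.48 on average. Adgrl3, a latrophilin, measured 3.18 and 2.37 against 74.79. Cntnap2, a neurexin relative, went against its list with 90.73 and 85.82 against 2.17 and with 112.56 and 120.81 in Input. Of 34 axon guidance genes 18 were lower and 4 higher (median −1.12). Dcc, the netrin receptor, measured 5.03 and 4.94 against 86.98, and the semaphorin Sema3c 3.14 and 3.45 against 33.51. The ephrin Efnb3 and the receptor Ephb1 were higher, at 17.42 and 17.1 against 2.59 and at 7.29 and 7.13 against 0.65. With a minimum of 5 in all 3 libraries no gene of either list was higher, and 7 of 11 adhesion and 12 of 22 guidance genes were lower.

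Long noncoding RNAs that stay in the nucleus carry a cap but are not translated. Of 13 compared from a list of nuclear and imprinted RNAs, 7 were lower and 3 higher, with a median of −1.40. Outside the rule, 3 members were listed at 0 in IgG and above 0 in both eIF4E libraries. Another 2, Xist and Kcnq1ot1, were also left out and stood higher in IgG. Meg3 (chromosome 12, 109540996 to 109571729) measured 16.29 and 20.59 in eIF4E and 393.78 in IgG, with Input at 10.2 and 10.44. Malat1, of nuclear speckles, measured 64.22 and 30.43 against 651.78, with Input at 16.24 and 11.26 (log2 −3.85, SE 0.47, limma adjusted p = 0.0011). In both RNAs the IgG value lay above all 4 other libraries. Airn measured 1.31 and 1.64 against 64.71, but it overlaps a gene on the opposite strand, and the libraries do not mark strand. Pantr1 and Dlx6os1 were higher, at 1186.84 and 909.16 against 264.91 and at 6.08 and 6.71 against 0.08. Of 11 snoRNA host genes, whose spliced RNAs start with TOP tracts without coding for protein, 4 were lower and none higher (median −0.89), with Snhg1 at 5.61 and 2.88 against 63.58 and Snhg6 at 2.9 and 1.62 against 17.62. A further 3 hosts lay outside the rule, listed at 0 in IgG and above 0 in both eIF4E libraries, so the count leaves out members on the eIF4E side.

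**Figure D3:**
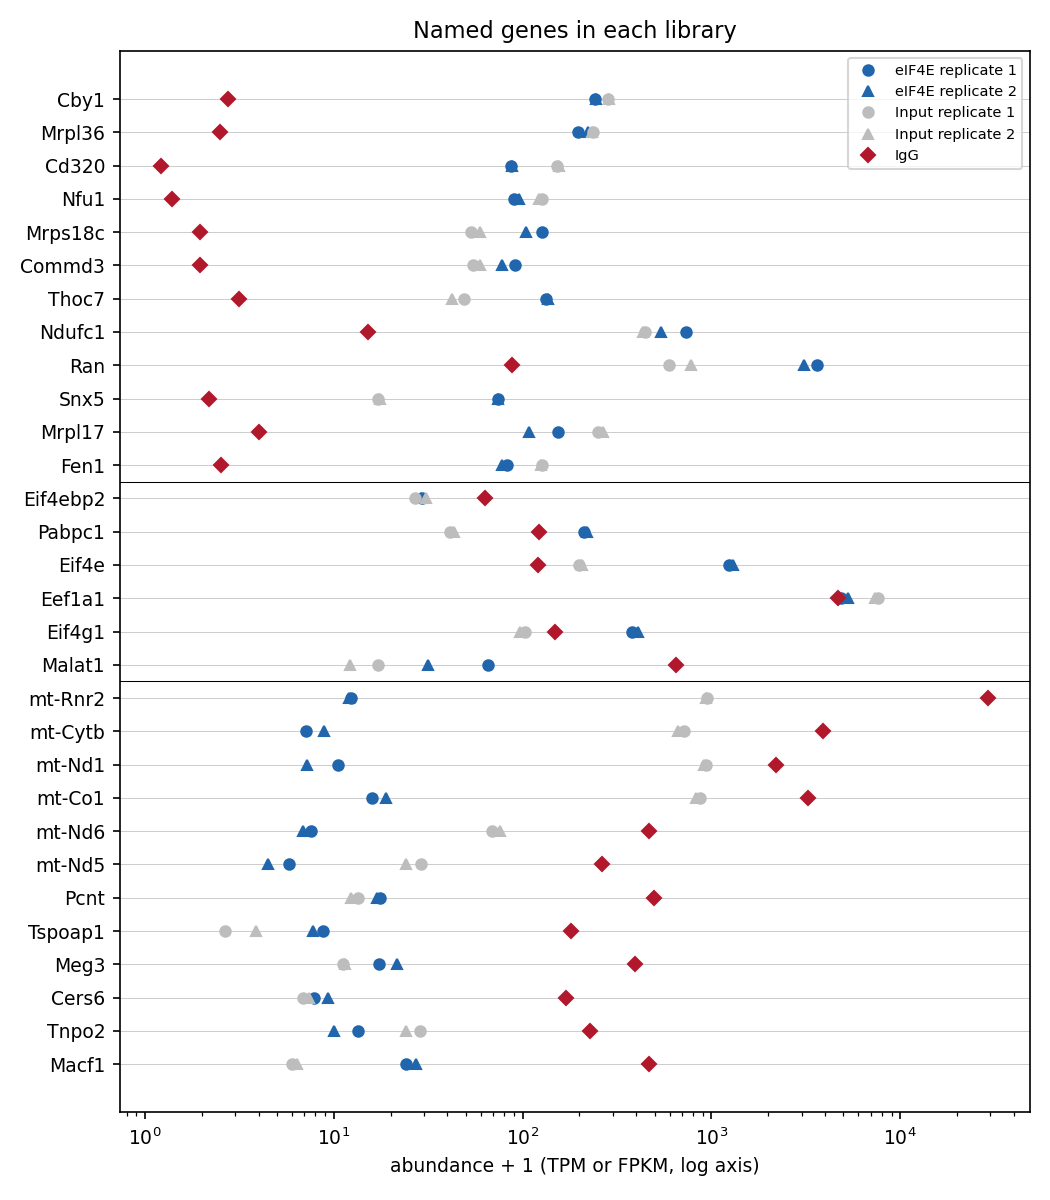
Abundance + 1 (log axis, TPM or FPKM) in each of the 5 libraries for the 12 highest and 12 lowest named genes and 6 genes always shown; each mark is 1 library. In the top block the IgG value lies below all other libraries and in the bottom block above them.

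The 12 largest differences in each direction among the more abundant genes belong in part to these groups. The highest was Cby1, a Wnt and ciliary regulator (chromosome 15, 79659103 to 79667660), at 241.84 and 245.05 in eIF4E, 1.74 in IgG, and 281.53 and 286.58 in Input (log2 6.48). It was followed by Mrpl36, by Cd320, the receptor for vitamin B12 on its carrier (86.04 and 86.62 against 0.22), by Nfu1, of iron-sulfur cluster assembly (88.99 and 94.3 against 0.39), and by Mrps18c. Commd3, Thoc7, Ndufc1, Ran, Snx5, Mrpl17 and Fen1 completed the 12, which were picked by the size of their difference. Cd320, Nfu1, Mrps18c and Commd3 measured below 1 in IgG (0.22, 0.39, 0.96 and 0.95), so they passed the minimum only through the eIF4E libraries. Ran, the GTPase of nuclear transport (chromosome 5, 129020156 to 129024322), measured 3619.62 and 3103.76 against 86.59, with Input at 596.58 and 777.52, and Snx5, a sorting nexin, 72.8 and 73.07 against 1.18, with Input at 16.13 and 16.59. Of the 12, Cby1, Mrpl36, Cd320, Nfu1, Mrpl17 and Fen1 had lower eIF4E than Input means, so that their difference came with an IgG value below Input rather than an eIF4E value above it.

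The 12 lowest, picked the same way, were mt-Rnr2, mt-Cytb, mt-Nd1, mt-Co1, mt-Nd6, mt-Nd5, Pcnt, Tspoap1, Meg3, Cers6, Tnpo2 and Macf1. Tspoap1, a presynaptic scaffold, measured 7.74 and 6.8 against 178.55. Cers6, a ceramide synthase, measured 6.82 and 8.28 against 168.73, and Tnpo2, a nuclear import receptor, 12.5 and 9 against 227.03. Input lay at 2.29, 6.12 and 25.3 on average for these 3 genes. For all 12 the IgG value was higher than in every other library.

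The lysosome and its nutrient sensor, named in the title of the study, went both ways. Of 32 lysosomal hydrolases and membrane proteins compared, 14 were higher and 7 lower, and 13 more were listed at 0 in IgG and above 0 in both eIF4E libraries. Their median was log2 0.04, and −0.29 after scaling to the same total, where 7 were higher and 9 lower. Lamp2, of the lysosomal membrane, measured 10.36 and 8.04 against 0.83 and Ctsl, a cathepsin, 57.69 and 66.34 against 10.52. Slc38a9, the arginine sensor of the lysosomal membrane, was lower at 4.35 and 2.7 against 92.41, as was the sulfatase Galns at 3.2 and 2.32 against 17.09.

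Subunits of the proton pump and of lysosome positioning had 10 of 29 higher and 1 lower (median 0.66), and 7 and 2 after scaling to the same total. Bloc1s1, shared by BORC and BLOC-1, measured 144.62 and 132.31 against 9.37, and the pump subunit Atp6v0c 650.36 and 650.14 against 91.17. The 1 lower gene was Plekhm2, an adaptor to kinesin-1, at 7.2 and 6.45 against 16.11. In the mTORC1 list 8 of 35 were higher and 10 lower (22.9% and 28.6%), near the 26% and 22.7% of all genes. Lamtor2, of the Ragulator that anchors mTORC1 to the lysosome, measured 108.26 and 75.12 against 5.31, and Flcn, which acts on the Rag GTPases, 41.7 and 44.01 against 3.75. Mtor itself measured 10.32 and 8.48 against 74.13 and Fnip2, a partner of Flcn, 2.7 and 3.71 against 34.11. Members thus lay on both sides, as genes did over the whole comparison. The list median, 0.25, turned to −0.10 after scaling to the same total.

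Of mRNAs that are often called eIF4E-sensitive, 6 of 21 were higher and 3 lower (28.6% and 14.3%), near the 26% of all genes for the higher calls. Nbn, of DNA break repair, measured 32.18 and 34.35 against 0.04 and the cyclin Ccne1 84.08 and 92.04 against 22.18. Nbn passed the minimum only through the eIF4E libraries. Xiap, an inhibitor of apoptosis, and the kinase Pim1 were lower, at 4.81 and 4.9 against 21.95 and at 1.17 and 1 against 3.84. Messages with upstream reading frames that escape the integrated stress response had 2 of 11 higher (18.2%) and 1 lower (9.09%), both below the 26% and 22.7% of all genes. Atf4, its main transcription factor, measured 407.48 and 433.34 against 155.75, Slc35a4 89.65 and 77.94 against 10.48, and the kinase gene Eif2ak4 10.36 and 8.28 against 24.7.

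Cell type markers went both ways in the progenitor lists, as genes did over the whole comparison, and leaned lower in the neuronal list. The designed difference between the precipitates was the antibody. The parts of precipitation, cell number and RNA per cell in a marker's difference cannot be told apart in such samples. For radial glia, 7 of 30 genes were higher and 7 lower, 23.3% each, near the 26% and 22.7% of all genes. After scaling to the same total 3 were higher and 11 lower, where all genes had 19.9% and 29.4%. The fatty-acid carriers Dbi (1038.34 and 818.22 against 100.45) and Fabp7 (263.8 and 204.08 against 51.33) were higher and the proliferation marker Mki67 (17.46 and 19.25 against 93.58) lower. Intermediate progenitor markers had 5 of 21 higher (23.8%, near that of all genes) and 1 lower (4.76%). After that scaling 3 were higher and 4 lower, and their median turned from 0.29 to −0.06. Of these Dll3, a Notch ligand, measured 58.3 and 48.81 against 3.55, Btg2, an antiproliferative factor, 313.71 and 332.34 against 120.3, and Eomes, which defines these cells, 11.58 and 11.64 against 31.9. Newborn neuron markers had 13 of 36 lower (36.1%) and 6 higher (16.7%), with a median of −0.40, and 16 and 4 after scaling. Nfib and Cux2, transcription factors of cortical neurons, were lower at 117.25 and 121.93 against 612.78 and at 9.04 and 7.2 against 50.44, and Lmo3 and the growth cone protein Gap43 higher at 38.18 and 40.98 against 0.08 and at 209.26 and 218.44 against 51.11.

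Markers of other cells that the tissue could hold were often listed at 0 in IgG: 13 of 21 endothelial and mural, 13 of 16 microglial, 10 of 14 oligodendrocyte precursor and choroid plexus, 7 of 16 meningeal and 7 of 20 interneuron genes, each above 0 in both eIF4E libraries. For comparison, quintiles of eIF4E abundance were made from genes at 1 or more in both eIF4E libraries. Of these genes, 44.9% in the lowest quintile were at 0 in IgG and 24.2% in the next. The meningeal and interneuron shares did not exceed the first of these. The marker counts also take in genes below 1 in eIF4E, so the bases differ. No list can therefore be said to exceed what low genes show. The summed abundance of the whole endothelial list was 209.9 and 211.5 in eIF4E, 180.9 in IgG, and 434.4 and 444.3 in Input. Of its IgG sum 145.83 was Egfl7, an endothelial secreted factor, which was lower in eIF4E at 43.62 and 51.09. Of 8 endothelial and mural genes compared 4 were higher and 1 lower, with the glucose transporter Slc2a1 at 65.48 and 59.45 against 10.08 and Vtn, vitronectin, at 21 and 19.2 against 0.19. The microglial list summed to 39.4 and 31.2 in eIF4E and 29.4 in IgG, and the meningeal list to 131.2 and 130.2 in eIF4E and 452.4 in IgG. Of 7 meningeal genes compared 5 were lower and none higher, with the collagen Col3a1 at 42.5 and 35.23 against 241.79 and Igf2 at 8.54 and 8.48 against 91.64. Erythroid genes, whose globin mRNAs come from blood, summed to 6456 and 4852 in eIF4E, 2557 in IgG, and 17174 and 18706 in Input. Among them Hbb-bt and Hbb-bs were higher (24.03 and 16.9 against 5.34, and 827.43 and 565 against 220.81), and Alas2, of haem synthesis, and the anion exchanger Slc4a1 lower (31 and 29.66 against 238.61, and 1.95 and 1.65 against 20.33). The part of blood or other cells in the differences between the precipitates was not tested.

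Interneuron markers had 2 of 10 higher (20%) and 3 lower (30%), near the 26% and 22.7% of all genes. Cajal-Retzius markers had 1 of 8 higher (12.5%) and 4 lower (50%). Of the first list, the transcription factor Sp8 was higher (12.87 and 13.43 against 0.56) and Dlx2 lower (6.56 and 6.22 against 26.88). The histone list, mostly mRNAs that end in a stem-loop without a poly(A) tail, had 15 of 37 genes compared and 16 listed at 0 in IgG. Of the 15, 3 were higher and 3 lower, 20% each, near the shares of all genes. The linker histone H1f2 was higher at 45.28 and 49.73 against 5.46 and H4c9 at 22.6 and 19.79 against 2.5, and H3c6 and H4c18 were lower. Libraries primed on poly(A) tails measure such mRNAs poorly.

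Across all protein-coding genes the difference followed the size of the gene. Genes were divided into quintiles by their span in RefSeq, introns included, since transcript lengths were not used here. In the shortest quintile (median 4.96 kb, 1853 genes) 40.4% were higher and 9.44% lower, with a median of log2 0.73. In the longest quintile (median 131 kb, 1852 genes) 14.7% were higher and 40.6% lower, with a median of −0.68. The medians of the quintiles between were 0.38, 0.13 and −0.24, and each eIF4E library alone gave the same order. Over 9261 genes Spearman's rho was −0.31, a description across genes that share 3 libraries.

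The difference also followed abundance in Input, which entered neither the rule nor the difference. The rule does need a value above 0 in IgG, and that need falls unevenly on abundance. Among genes at 1 or more in both eIF4E libraries, 44.9% of the lowest quintile of eIF4E abundance were at 0 in IgG, against 1.58% of the highest. What part of the order by Input came from this choice of genes was not tested. In the lowest quintile of Input abundance (median 1.15) 13.3% of genes were higher and 46.5% lower. In the highest quintile (median 156) 46.3% were higher and 2.01% lower. Median eIF4E abundance ran from 3.30 in the lowest of these quintiles to 133.4 in the highest, and median IgG abundance from 8.42 to 77.7. Among the genes compared, the IgG library spread its abundance more evenly over low and high Input levels than eIF4E did. Spearman's rho was 0.43 over 9945 genes. Short genes were also more abundant in Input, with a median of 54.0 in the shortest quintile and 4.07 in the longest, so the 2 orders overlap, and their separate parts were not tested. By contrast, the GC content of the first 50 bases of the RNA had little relation to the difference (rho −0.03 over 7715 genes).

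**Figure D4:**
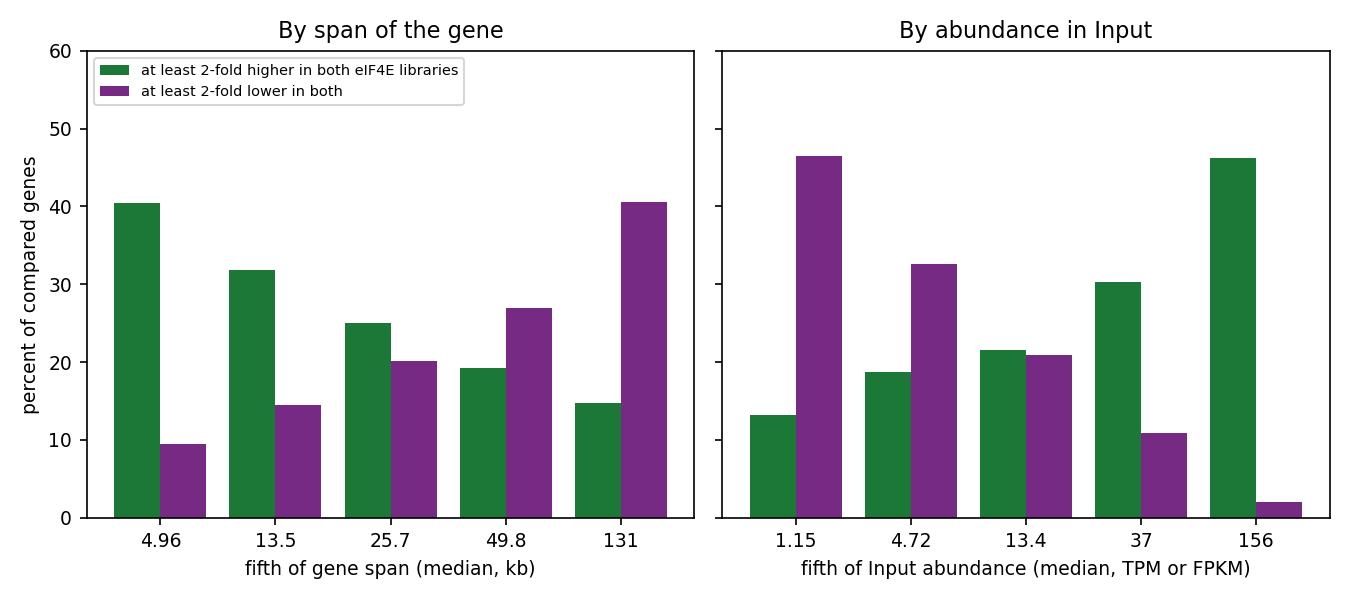
Percent of compared genes at least 2-fold higher (green) or lower (purple) in both eIF4E libraries than in IgG, by quintile of gene span (left, protein-coding genes, median kb on the axis) and by quintile of Input abundance (right). Higher calls drop from 40.4% to 14.7% with span and rise from 13.3% to 46.3% with Input abundance.

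Genes at 0 in a precipitate lay outside the rule. There were 2214 genes listed at 0 in IgG and at 1 or more in both eIF4E libraries, 475 of them above 10 in both, and 258 the other way round, at 1 or more in IgG and 0 in each eIF4E library. The most abundant of the former were Edf1, a transcriptional coactivator (445.15 and 392.55 in eIF4E, 806.44 and 886.03 in Input), Med21, of the Mediator complex (140.6 and 144.66), Arxes2 (113.94 and 121.9), Nudt2 (108.3 and 118.79) and Mrpl43 (111.81 and 113.39). An exact 0 in such a table can be a failed estimate, so no fold is given. Among genes at 1 or more in both eIF4E libraries, the share of 0 values in IgG was 44.9% in the lowest quintile of eIF4E abundance and 1.58% in the highest. By gene span it was 21.3% in the shortest quintile and 13.7% in the longest. Among genes above 0 in all 3 libraries, 1077 were left out by the minimum of 1. The gene Btbd11 lay just inside it at 0.79, 1 and 1.96 in both eIF4E libraries and IgG, and Arid5b just outside at 1.31, 0.99 and 0.23.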

How the data were processed

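The deposited table holds 1 column per library of a signal that the authors computed per gene, with 2 decimals. The build was mm10, the aligner STAR 2.7.9a and the quantifier RSEM 1.3.3, per the submitters' processing notes. TPM or FPKM, annotation and filters: not given in the sources used here. Hence the level of 1 library against another depends on an unknown factor. Depth is unknown, and no counting intervals are given.

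Of 50161 rows, 286 repeated a gene ID and were dropped. Values were taken as log2(value + 1) without rescaling. The 2-fold call is descriptive. limma 3.58.1 (R 4.3.3; 3 groups, 5 libraries, eBayes with trend, Benjamini-Hochberg) was tested on simulated data, and p-values measure only the spread between these libraries. Members and the 41 gene lists were chosen with earlier results of these data known, and no set test was run. Named genes are the 12 largest called differences per direction among genes above the median abundance without predicted names, the 2 highest and 2 lowest called in a list, 6 fixed genes, and the most abundant genes at 0. A gene that this rule picks is not reported here. The other genes named were chosen after their values were seen. RefSeq (GRCm38.p6) gave spans for 9789 of 9954 genes by symbol. Gene span replaced the planned protein length, which was not used here. List names that speak of large or small proteins are background knowledge. Alternatives covered the pseudocount, scaling, filters, fold and left-out libraries.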

Additional observations from a re-analysis of the deposited data

How the results depend on the processing

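The counts of 2589 higher and 2257 lower genes stayed within 1.5 times under the pseudocounts, the scalings and a 1.5-fold threshold. With no filter beyond a value above 0 in any precipitate library 4803 genes were higher, since genes at 0 in IgG then count, and limma called 7789 higher. With a minimum of 5 in all 3 libraries 1440 were higher and 1278 lower, of 6872 genes compared, and at 4-fold 951 and 802. Without 1 eIF4E replicate, 2723 to 2768 were higher and 2381 to 2382 lower, as a single eIF4E library then has to pass, with no test. The limma counts ranged from 4200 to 4226 higher and from 3659 to 3747 lower without 1 eIF4E or Input replicate, with the lone samples assumed to vary like the others. None of the named genes called higher or lower changed sign under an alternative that kept it. The call, at least 2-fold in both eIF4E libraries, left little room for such a change, so this is a weak check. Of the named genes not called, Eef1a1, Neurod6 and Rps6 changed sign. Against the median of all genes, 6 list medians changed sign under at least 1 alternative: kinetochore, endothelial, interneuron, lysosomal, microglial, and oligodendrocyte precursor and choroid plexus. No paired analysis was possible because the IgG library carries no replicate number. Depth is unknown, so values near 0 carry no limit of detection.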

Other observations

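Nuclear and imprinted RNAs outside the rule of comparison lay on both sides. Xist, the RNA that coats the inactive X chromosome, measured 25.24 in IgG, 0.25 and 0.32 in eIF4E and 0 in both Input libraries, and Kcnq1ot1, an imprinted antisense RNA, 6.33, 0.1 and 0.11, and 0.01 in each Input library. Ftx, a neighbour of Xist, went the other way, at 5.57 and 6.93 in eIF4E and listed at 0 in IgG. So did Jpx, at 0.89 and 2.89 in eIF4E, and Neat1, at 0.48 and 0.77, both also listed at 0 in IgG. By RefSeq type, 84 of 205 long noncoding RNAs compared were lower in eIF4E and 37 higher, against 2065 lower and 2432 higher of 9261 protein-coding genes. Pseudogenes lay on the other side, with 91 of 276 higher and 29 lower.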
